A study of Arabidopsis thaliana with 4 samples.

Results

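The cytosolic translation elongation factors of Arabidopsis thaliana were followed through 4 lists of binding sites of TRB1, a Myb-type DNA-binding protein of plants that is known to bind telomeric repeats. The set held 10 of the 27444 protein-coding genes of chromosomes 1 to 5 and was given as a list of locus tags, drawn up with earlier results of these data known. It comprised 4 copies of eEF1A (AT1G07920, AT1G07930, AT1G07940 and AT5G60390), 5 genes of eEF1B subunits (AT5G12110, AT5G19510, AT1G09640, AT1G57720 and AT1G30230) and the eEF2 gene AT1G56070. Of the 10 genes, 2 carry a symbol in the gene table, LOS1 for AT1G56070 and eEF-1Bb1 for AT1G30230, and the others are known here by locus tag and family only, without the letter of their subunit. A gene was called bound where any peak reached into a window from 500 bp outside to 500 bp inside one of its ends.

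Elongation is the stage of protein synthesis in which the ribosome adds amino acids to a growing chain. The GTPase eEF1A delivers charged transfer RNAs to the ribosome, the eEF1B complex exchanges the spent GDP on eEF1A for GTP, and the GTPase eEF2 moves the ribosome along the message. Plant eEF1A genes are expressed strongly in dividing tissue, and the telo box, a short copy of the plant telomere repeat lying inside the chromosome arms, is known from their promoters.

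Chromatin was taken from seedlings aged 14 days and fixed with formaldehyde, and there were 4 groups of 1 library each. A matrix that binds green fluorescent protein (GFP-Trap A) was applied to plants homozygous for TRB1pro:TRB1-GFP, in which the TRB1 promoter drives the fusion protein, and to wild-type (Wt/Wt) plants as the control. Wild-type plants were also precipitated with anti-TRB1 antibody (5.2), with wild-type chromatin without antibody as the control. Neither the number of plants behind a library nor the presence of unfused TRB1 in the fusion plants is stated.

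The values are peak lists, and no read depth is known for any library. The replicate 1 list held 3975 peaks, the replicate 2 list 7480, the PePr list 24219 and the genomic list 4995. The sources used here do not tie either replicate list to an immunoprecipitation approach, and each of the 4995 genomic list intervals was a stretch that the other 3 lists share, so that list is not a separate measurement. With 1 library per group no test between conditions was made, and each count is set beside the share of all protein-coding genes with a peak in the same list.

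All 10 elongation factor genes had a PePr peak, 8 had a replicate 2 peak, and 4 had both a replicate 1 peak and a genomic list peak. Among all protein-coding genes 68.7% had a PePr peak, 41.4% a replicate 2 peak, 24.6% a replicate 1 peak and 19.6% a genomic list peak. The members' share was above that of all genes in each list, but it rests on 10 genes, of which 3 are neighbours, and no test was made of it. The 4 genes in the genomic list were AT1G07940 and AT5G60390, which encode eEF1A, and AT5G19510 and AT1G57720, which encode subunits of eEF1B.

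**Figure D1:**
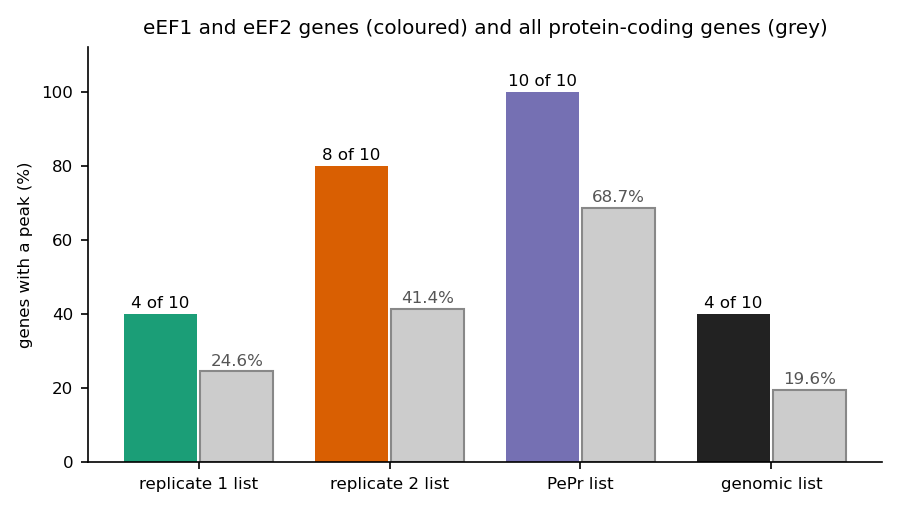
Percent of genes with a peak within 500 bp of an end, for the 10 elongation factor genes (coloured bars, with the count) and all 27444 protein-coding genes (grey bars), in each of the 4 lists. The elongation factor genes run from 4 of 10 in the replicate 1 and genomic lists to 10 of 10 in the PePr list, where 68.7% of all genes have a peak.

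The genes fell into 3 patterns over the lists. A peak in all 4 lists was found at 4 members and at 5392 genes in all, 19.6% of the protein-coding genes. A peak in the replicate 2 and PePr lists, with none in the replicate 1 and genomic lists, was found at 4 members (AT1G07920, AT1G07930, AT1G09640 and AT1G56070) and at 4508 genes in all (16.4%). A peak in the PePr list alone was found at 2 members (AT5G12110 and AT1G30230) and at 8059 genes in all (29.4%). Both families with several genes were divided: eEF1A had 2 genes in the first pattern and 2 in the second, and eEF1B had 2 in the first, 1 in the second and 2 in the third.

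The overlap of the replicate lists at the members was set beside that at all genes. All 4 members with a replicate 1 peak also had one in replicate 2, as did 90.6% of all genes with a replicate 1 peak. All 4 also had a genomic list peak, against 79.9% of all genes with a replicate 1 peak. In the other direction, 4 of the 8 members with a replicate 2 peak had one in replicate 1, close to the 53.8% of all genes with a replicate 2 peak. By the score deposited with each peak, the replicate 1 list began at 664 and the replicate 2 list at 87.6. Whether both lists share a scale is not stated, and the part of these lower bounds in the patterns and the overlap was not tested.

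**Figure D2:**
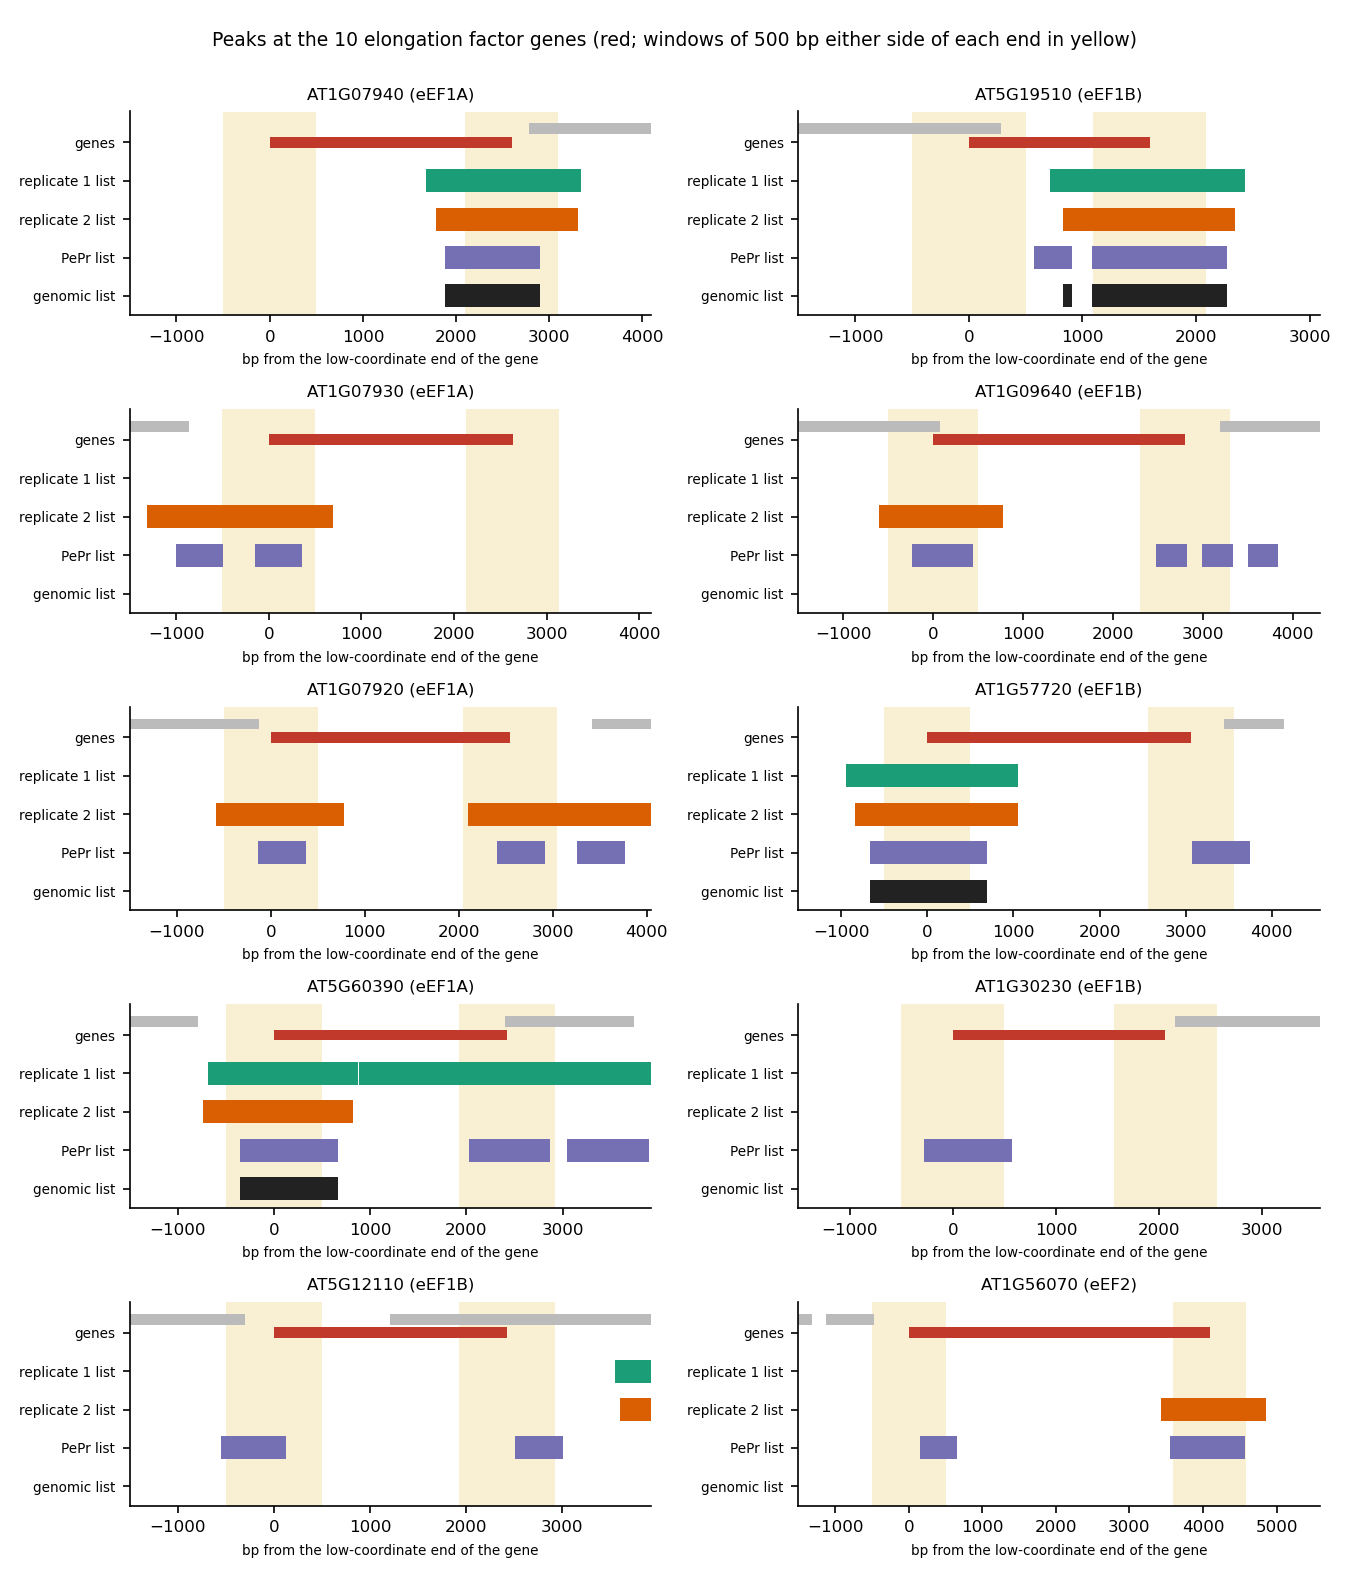
Position of the peaks of the 4 lists (coloured bars) at each elongation factor gene (red) with neighbouring protein-coding genes (grey), in bp from the end of the gene with the lower coordinate; yellow bands are the windows of 500 bp on either side of each end. AT1G07940, AT5G60390, AT5G19510 and AT1G57720 have bars of all 4 lists stacked over 1 end, while AT5G12110 and AT1G30230 have PePr bars alone within the windows.

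The eEF1A gene AT5G60390, alone of its family on chromosome 5, had high scores in both replicate lists. Its peak in the replicate 1 list (chromosome 5, 24287904 to 24289472) had a score of 3100, and its peak in the replicate 2 list (24287854 to 24289412) also had a score of 3100. These scores were deposited with the peaks, and the names of both replicate lists contain MACS, a tool of the processing notes. Their scale is not stated, and each was read only against its own list. A score of 3100 or more was held by 29.4% of replicate 1 peaks and 12.3% of replicate 2 peaks, so it marks the upper end of each list without an order within it. The PePr peak there (24288241 to 24289260), identical to the genomic list interval, had a p-value of 9.28e-22, with 5.83% of PePr peaks at a lower p-value. Its centre lay 154 bp inside the end of lower coordinate. These 3 peaks also reached a window of AT5G60380, so they cannot be given to AT5G60390 alone.

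The opposite end of AT5G60390 also had peaks, at lower values. A replicate 1 peak from 24289478 to 24292942 had a score of 892, with 83.4% of the list above it, and a PePr peak from 24290621 to 24291470 had a p-value of 4.18e-13. Replicate 2 had no peak at that end. This end overlaps the next gene, AT5G60400, whose windows both peaks also reached, so the peaks cannot be given to either gene alone. AT5G60390 was the only member with replicate 1 peaks at both ends.

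The other 3 eEF1A genes are neighbours on chromosome 1 and differed among themselves. AT1G07940 was the only one of the 3 with a peak in all lists. Its replicate 1 peak (chromosome 1, 2464630 to 2466286) had a score of 2111 and its replicate 2 peak (2464732 to 2466254) a score of 911, with 43% and 38% of the peaks of each list above them. The PePr peak (2464831 to 2465850), again identical to the genomic list interval, had a p-value of 2.58e-15. All of these lay over the end of higher coordinate, which faces MED22B (AT1G07950), named after a subunit of the Mediator complex that links transcription factors to RNA polymerase, across a gap of 183 bp. The same peaks reached the window of MED22B, so they cannot be given to AT1G07940 alone, although its end was the nearest protein-coding gene end to their centres.

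AT1G07930 and AT1G07920 had peaks of the replicate 2 and PePr lists only. A replicate 2 peak with a score of 543 (2456865 to 2458876) spanned the space between them and counted for both genes, with 51.4% of the list above it. Within it lay 2 PePr peaks, from 2457181 to 2457690 with a p-value of 2.04e-08 and from 2458031 to 2458540 with a p-value of 4.72e-08. The first reached windows of both genes and the second only that of AT1G07930. At the far end of AT1G07920, which faces the tRNA ligase gene RNL, a replicate 2 peak (2454188 to 2455553) had a score of 141, with 87.1% of the list above it, and a PePr peak (2454631 to 2455140) had a p-value of 3.20e-09. Both peaks also reached an end of RNL, so they cannot be given to AT1G07920 alone. The nearest replicate 1 peak lay 3813 bp from an end of AT1G07930 and 7309 bp from an end of AT1G07920, and in both cases it was the one at AT1G07940.

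**Figure D3:**
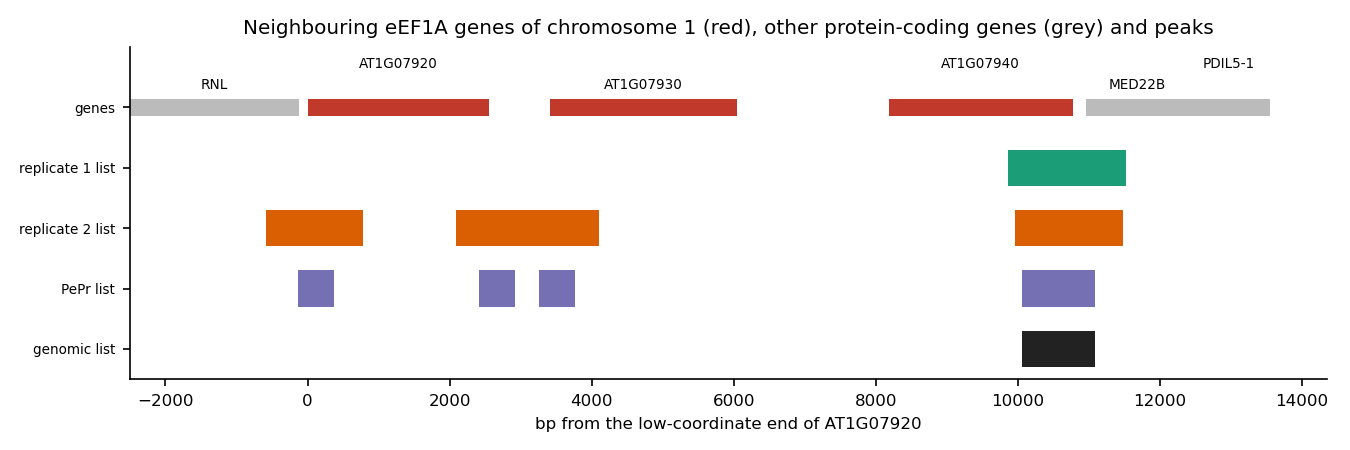
Map of the neighbouring eEF1A genes AT1G07920, AT1G07930 and AT1G07940 (red) with other protein-coding genes (grey) and the peaks of the 4 lists (coloured bars), in bp from the end of AT1G07920 with the lower coordinate. Bars of all 4 lists are stacked only over the end of AT1G07940 next to MED22B, while replicate 2 and PePr bars appear at both ends of AT1G07920.

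The eEF1A copies encode nearly identical proteins, and the sequenced reads were 50 bp long. Reads from stretches that the copies share could have been placed at any copy or dropped, and the treatment of such reads is not stated. The differences between the copies are therefore uncertain, and the part of shared reads in them was not tested.

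Of the 5 eEF1B genes, AT5G19510 and AT1G57720 had peaks in every list. At AT5G19510 the replicate 1 peak (chromosome 5, 6582375 to 6584088) and the replicate 2 peak (6582483 to 6584004) both had a score of 3100. The PePr and genomic interval (6582741 to 6583930) had a p-value of 2.59e-19, and its centre lay 88 bp outside the end of higher coordinate. No other protein-coding gene had an end within reach of that interval, although the wider replicate 1 peak also reached a window of AT5G19500.

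AT1G57720 stood at different places in the replicate lists. Its replicate 2 peak (chromosome 1, 21376478 to 21378372) had a score of 3100, whereas its replicate 1 peak (21376369 to 21378377) had a score of 796, with 90.3% of the replicate 1 peaks above it. The replicate 1 list began at a score of 664, so this peak was near its lower bound. The PePr peak at the same end (21376651 to 21378010) had a p-value of 1.33e-29, the lowest at any member, with 1.84% of PePr peaks below it. Its centre lay 10 bp inside the gene from the end of lower coordinate, and no other protein-coding gene shared it. A second PePr peak near the other end (21380391 to 21381070) had a p-value of 1.64e-10 and also reached an end of AT1G57730.

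AT1G09640 had a replicate 2 peak near the lower bound of that list and PePr peaks from the middle of the list downward. Its replicate 2 peak (chromosome 1, 3119141 to 3120516) had a score of 89.8, where the list began at 87.6, and 99.1% of the list was above it. The PePr peak there (3119501 to 3120180) had a p-value of 6.76e-09, with 51% of PePr peaks at a lower p-value, and both peaks also reached an end of RAB11c, the gene of a small GTPase of membrane traffic that overlaps AT1G09640. Another 2 PePr peaks lay at the other end, with p-values of 3.47e-07 and 2.38e-06, and both also reached a window of AT1G09645. The nearest replicate 1 peak was 11121 bp away.

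The remaining eEF1B genes had PePr peaks alone, at very different p-values. At AT5G12110 a PePr peak (chromosome 5, 3913911 to 3914590) had a p-value of 2.26e-18, with 9.84% of PePr peaks at a lower p-value, and a second at the other end (3916971 to 3917480) had one of 3.36e-07. The first also reached an end of AT5G12100. The nearest peaks of the other lists lay beyond the windows, 1120 bp from its end in replicate 1 and 1173 bp in replicate 2. At AT1G30230, annotated as elongation factor 1B beta, the single PePr peak (chromosome 1, 10638601 to 10639450) had a p-value of 8.03e-07, the highest among the members' best values, and the nearest peak of either replicate list lay 4136 bp from an end.

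The eEF2 gene AT1G56070, also named LOS1, had no replicate 1 or genomic list peak. Over its end of higher coordinate lay a replicate 2 peak (chromosome 1, 20971080 to 20972504) with a score of 770, with 42.2% of the list above it, and a PePr peak (20971201 to 20972220) with a p-value of 1.70e-18. A second PePr peak at the other end (20967801 to 20968310) had a p-value of 2.11e-09. No other protein-coding gene shared any of these peaks. The nearest replicate 1 peak was 4259 bp from an end of the gene.

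The best value at each gene differed widely among the members. Of the 10 members, 6 had a lowest PePr p-value below the median of all 18849 genes with a PePr peak, which was 2.00e-11. Those 6 had values of 2.58e-15 or lower and the others of 3.20e-09 or higher, so a single median does not describe the members. The share of those genes with a lower p-value ran from 4.15% for AT1G57720 to 88.9% for AT1G30230. In the replicate 2 list 5 of 8 members were above the median of all genes with a peak (members' median 840, all genes 740), and in the replicate 1 list 3 of 4 (members' median 2606, all genes 1931). Scores and p-values of genes that share a peak are the same value counted again, as for AT1G07920 and AT1G07930 in replicate 2.

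**Figure D4:**
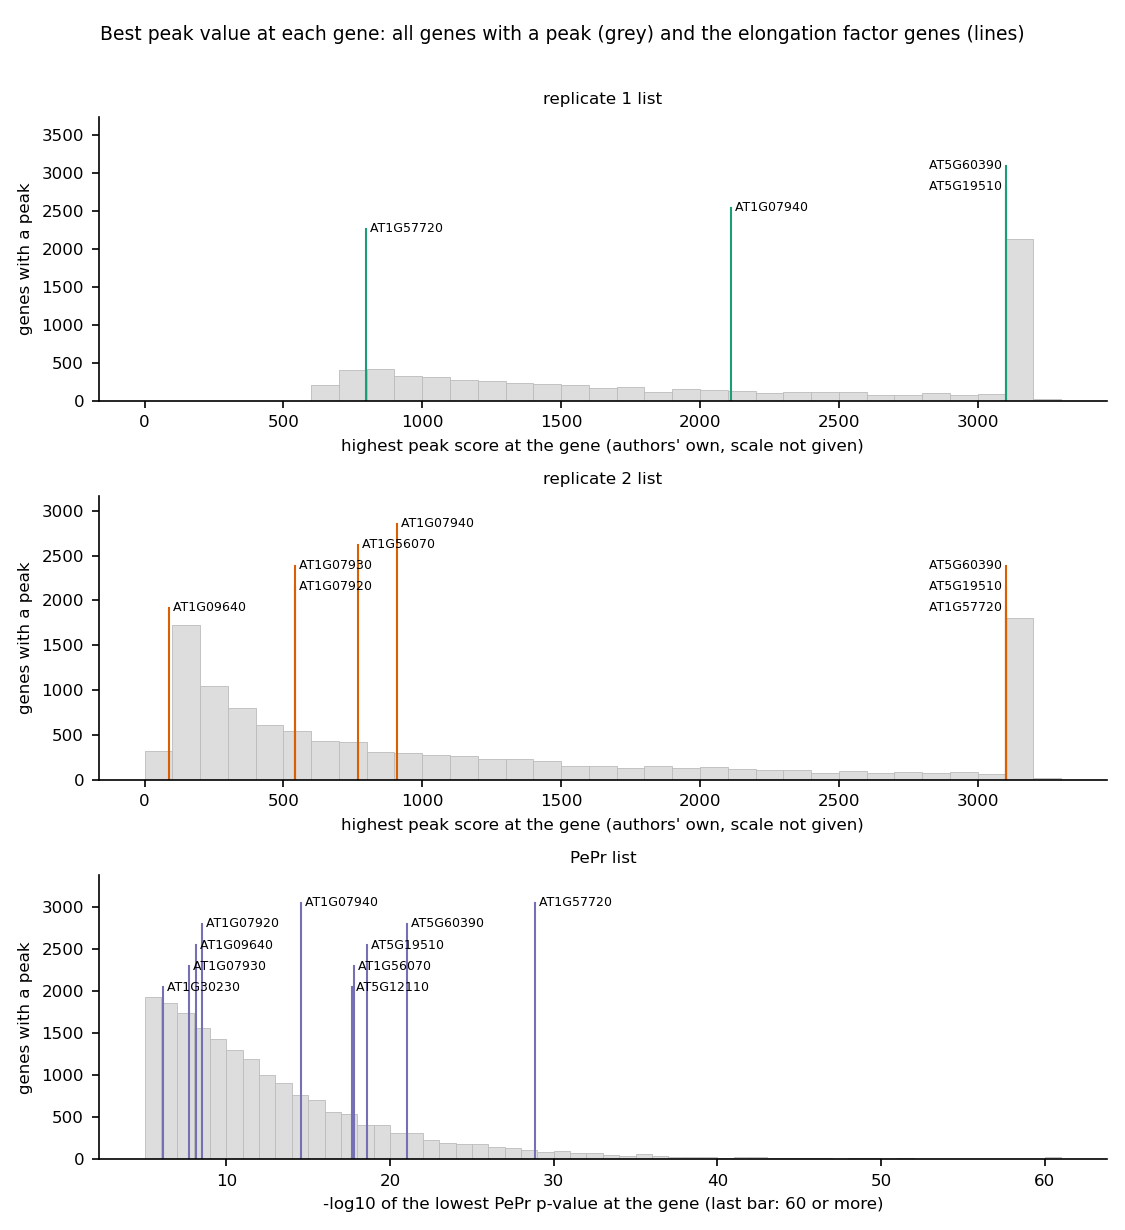
Best peak value at each gene: highest score in the replicate 1 and replicate 2 lists and -log10 of the lowest p-value in the PePr list (horizontal axes), with the number of all genes with a peak in grey and a line for each elongation factor gene. AT5G60390 and AT5G19510 stand at a score of 3100 in both replicate lists, AT1G57720 does so in replicate 2 only, and the PePr values of the 10 genes run from 8.03e-07 to 1.33e-29.

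A low PePr p-value did not go with a genomic list peak in every case. The 4 members in the genomic list had lowest PePr p-values from 2.58e-15 to 1.33e-29, and the 6 others from 8.03e-07 to 1.70e-18. The ranges overlapped, since AT1G56070 and AT5G12110 had lower p-values than AT1G07940. Over all genes the median was 5.42e-17 for those with a genomic list peak and 6.77e-10 for the 13457 with a PePr peak and no genomic list peak. Membership of the genomic list requires a PePr peak, so the lists are not independent.

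Since a gene counted only with a peak near an end, nearness to an end is part of the rule, and only the exact position is described here. Each of the 4 genomic list intervals that reached a member's window covered the gene end, with its centre between 10 and 204 bp from it. The median over all 5392 genes with a genomic list peak was 244 bp, and 44.3% of those genes had a centre as near as the farthest of the members. Of the 17 PePr peaks that reached a member's window, 13 covered an end. Inside AT5G19510 a further genomic list interval and a further PePr peak lay beyond both windows and were not counted. For neither list was the share of all peaks near gene ends that cover one counted. A PePr peak at both ends was found at 6 of 10 members, all of which had a PePr peak. The like count over all genes is 7702 of the 18849 with a PePr peak. Those 7702 are 28.1% of all protein-coding genes, a base that includes genes without a PePr peak. The gene table gives no strand, so it is not known here whether an end is the start or the finish of the gene, and promoters were not measured as such.

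Several of these peaks were also near other genes. Of the members with a peak, 2 of 4 in the genomic list, 3 of 4 in replicate 1, 5 of 8 in replicate 2 and 7 of 10 in PePr shared at least 1 peak with another protein-coding gene. The same share over all genes with a peak was not counted, so sharing is not shown to be particular to the members. When a peak counted for no gene but the one whose end was nearest to its centre, all 4 members kept their replicate 1 and genomic list peaks, 7 of 8 kept a replicate 2 peak and all 10 kept a PePr peak. Under that rule the share of all protein-coding genes with a peak was 13.5% for replicate 1, 13.5% for the genomic list, 25.0% for replicate 2 and 53.8% for PePr. AT1G09640 was the gene that lost its replicate 2 peak. Among the 50% of replicate 2 peaks with the higher scores, 5 of the 10 members had a peak, against 23.5% of all genes: AT1G07940, AT5G60390, AT5G19510, AT1G57720 and AT1G56070.

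Other genes of elongation and of the end of translation were listed for comparison, 19 in all, of which 10 have a symbol in the gene table and 9 are listed by locus tag alone. A genomic list peak was found at 5 of the 19, a replicate 1 peak at 6, a replicate 2 peak at 9 and a PePr peak at 16. These are 26.3%, 31.6%, 47.4% and 84.2% of the 19, beside 19.6%, 24.6%, 41.4% and 68.7% of all genes. The genes with a peak in all 4 lists, the pattern of AT5G60390, were ELF5A-3, ERF1-2, RABE1b, AT4G02930 and AT2G45030. When each peak counted for the nearest gene end alone, only ERF1-2 of these kept a peak in all 4 lists. The difference between these genes and the 10 members was not tested.

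The 3 genes of elongation factor 5A, which helps the ribosome past difficult stretches of the chain, showed the same 3 patterns as the members. ELF5A-3 had a peak in all 4 lists, with a PePr p-value of 3.81e-19 and scores of 1367 (replicate 1) and 1409 (replicate 2). These peaks also reached a window of another protein-coding gene. When each peak counted for the nearest gene end alone, ELF5A-3 kept a PePr peak only. FBR12, which encodes the factor eIF5A-2, had peaks in replicate 2, with a score of 777, and in PePr. ELF5A-1 had a PePr peak alone, with a p-value of 2.30e-06. Counted with shared peaks, these copies of 1 factor were, like those of eEF1A, not alike in the lists.

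Among 7 release and rescue factors, 1 had a genomic list peak. This was ERF1-2, a release factor that recognises stop codons. It scored 1754 in replicate 1 and 3131 in replicate 2. Its relatives ERF1-1 and ERF1-3, and PEL1, a rescue factor of stalled ribosomes, had PePr peaks alone. Among 7 genes listed as elongation factors of chloroplasts and mitochondria, 3 had a genomic list peak. A peak in both replicate lists goes with that by the make-up of the genomic list. AT1G45332 had a replicate 1 peak without a replicate 2 peak, and AT4G11120 the reverse. RABE1b, listed as the chloroplast counterpart of eEF1A, had a replicate 1 score of 751 and a replicate 2 score of 471. Its PePr peak at the same end had a p-value of 4.69e-29, with 1.95% of PePr peaks at a lower p-value. All of these peaks also reached a window of another protein-coding gene. SCO1, the chloroplast counterpart of eEF2, had no peak in any list. The last 2 listed genes, AT2G18110 and AT3G12915, listed as further genes of eEF1B and eEF2, had PePr peaks, and AT3G12915 also had a replicate 2 peak with a score of 182.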

How the data were processed

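Chromatin immunoprecipitation libraries of 4 groups, 1 library each, were sequenced, and 4 peak lists without headers were analysed. Per the submitters' processing notes the tools were MACS, bedtools, SAMtools and Bowtie2 (2.2.2), and the builds TAIR9 and TAIR10. The notes used here state no role for any tool, but the names of both replicate lists contain MACS. For no list do the sources used here give the build, the threshold, the control or any pooling of libraries. The authors deposited a score per peak in the replicate lists, p-values, raw and adjusted, in the PePr list (the raw ones are printed), and positions alone in the genomic list. Read depth is unknown, and its part in the lengths of the lists was not tested.

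Peak positions follow the lists and start counting at 1. The gene table was that of RefSeq for the assembly TAIR10.1, matched by locus tag (10 of 10); none of its coordinates are printed, and distances to gene ends assume that the builds agree. A peak overlapping a window by 1 bp counted. Counting was done in Python 3.11.15 with pandas 2.3.3 and was tested on made-up intervals. The members and the lists were chosen with earlier results of these data known. All members and all genes listed for comparison may be named, and other genes only where they share a peak with a member. Alternatives were windows of 200 and 1000 bp, an overlap of 250 bp, peak centres, nearest genes and the upper 50% of peaks. The planned searches for motifs, the comparison of proteins and the use of gene starts needed sequences or strands and were not run.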

Additional observations from a re-analysis of the deposited data

How the results depend on the processing

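The number of elongation factor genes with a peak was 4 in the genomic list under all 5 alternatives, 3 to 4 in the replicate 1 list, 7 to 10 in the PePr list and 5 to 8 in the replicate 2 list, under 6 alternatives each. Over the same alternatives the share of all protein-coding genes with a peak ran from 13.5% to 22.7%, from 13.1% to 27.6%, from 46.9% to 75.6% and from 23.5% to 46.0%, in that order of lists. The count moved by over 1.5 times in 1 case, the upper 50% of replicate 2 peaks by score, which left 5 by leaving out peaks. Of the 19 genes listed for comparison, counting a peak for the nearest gene end alone left 3 in the genomic list, 2 in replicate 1 and 5 in replicate 2, and the upper 50% of peaks by score left 2 in replicate 1 and 5 in replicate 2. The use of gene starts alone, the motif searches and the protein comparison were not run. No paired analysis was possible because the lists carry no library of their own and no test was made. Unknown read depth limits every count: a gene without a peak is not shown to lack TRB1. Control signal was not set beside the peaks, and another 2 value columns of the PePr list, whose meaning is not stated, were not used.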
